A study of Mus musculus with 9 samples.

Results

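The PDGF family of the mouse was followed here through 6 genes, the ligand genes Pdgfa, Pdgfb, Pdgfc and Pdgfd and the receptor genes Pdgfra and Pdgfrb. They were picked by name and not by a cut on their values, though earlier results of these data were known. All 6 were found among the 21950 genes of the deposited expression table. The recipient cells were MLE-12, 1 mouse lung epithelial line derived from lung tumours of SP-C/TAg transgenic animals, in which the surfactant protein C promoter drives a viral T antigen. All cells were at passage 17 and grew in DMEM with fetal bovine serum and antibiotics. The 3 control samples received regular medium. A second group of 3 samples received extracellular vesicles isolated from the bronchoalveolar lavage fluid of wild-type mice given bleomycin, which injures the lung and leads to fibrosis. The third group of 3 received vesicles prepared likewise from injured mice deficient in syndecan-1 (gene Sdc1), a heparan sulfate proteoglycan of the cell surface. Only the vesicle donors differed in genotype, and no group received vesicles of uninjured mice. Neither the amount of vesicles nor the time of exposure is given in the labels. The labels do not say whether the samples of a group came from separate cultures or vesicle preparations, so p values measure the spread between these samples, which may be technical.

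Platelet-derived growth factors are secreted dimers that bind 2 receptor tyrosine kinases, PDGFR-alpha and PDGFR-beta, and drive division and migration of mesenchymal cells. In the lung, epithelial cells are a known source of PDGF-A, which acts on PDGFR-alpha of neighbouring fibroblasts, and PDGF signalling is a classic driver of fibroblast growth in fibrosis. PDGF-A and PDGF-B are cut to their active form inside the cell by proprotein convertases, whereas PDGF-C and PDGF-D leave the cell as latent proteins that are cut outside it. PDGFR-alpha binds PDGF-A, PDGF-B and PDGF-C chains, and PDGFR-beta binds mainly PDGF-B and PDGF-D.

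Expression was given as RPKM, reads scaled to gene length and library size, so levels can be set side by side between genes if the gene lengths used are right. Library totals recovered from the values lay between 24353257 and 33558660 reads. Among the vesicle-treated libraries, wild-type replicates 1 and 2 stood apart from the other 4 on the second principal component, which held 10.2% of the variance. Over the 11125 genes with a mean of at least 1 RPKM, limma called 8352 genes after wild-type vesicles against control (adjusted p under 0.05), 5009 higher and 3343 lower, and 8370 with syndecan-1 deficient vesicles, 5424 higher and 2946 lower. After division by median-of-ratios factors, which set the typical gene to the same level in every library, the split was 3948 higher and 4492 lower for wild-type vesicles and 3812 and 4578 for deficient vesicles, and the median log2 fold change of all tested genes moved from 0.090 to -0.034 and from 0.13 to -0.044. Between the 2 preparations 2042 genes were called, 1438 higher and 604 lower after deficient vesicles, against 777 and 1084 after the division.

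Of 8 epithelial markers, 5 were tested, and after either preparation 3 rose and 2 fell. Over all tested genes 45.0% were called higher and 30.0% lower after wild-type vesicles, and 48.8% and 26.5% after deficient vesicles. The summed level of all 8 epithelial markers lay between 1075 and 1120 RPKM in control, 453 and 523 after wild-type vesicles and 463 and 485 after deficient vesicles. The keratin genes fell, Krt8 from 337 ± 4.6 RPKM (SD, n = 3) to 179 ± 6.9 and 162 ± 9.97, and Krt19 from 712 ± 18 to 186 ± 23 and 191 ± 13. The lung transcription factor gene Nkx2-1 rose from 23.95 ± 1.3 RPKM to 34.2 ± 0.94 and 37.2 ± 4.1. The surfactant genes rose as well, Sftpb from 13.6 ± 1.6 RPKM to 62.4 ± 7.6 and 60.6 ± 3.8, and Sftpc from 8.73 ± 0.45 to 16.4 ± 1.3 and 18.8 ± 3.0. Krt18, which encodes the usual partner of keratin 8, was at 0.228 to 0.871 RPKM over all libraries. The adhesion gene Epcam, a widely used epithelial marker, was listed at 0 in all 9 libraries. Cdh1, another such marker, which encodes E-cadherin, was at 1.34 to 1.40 RPKM in control and at 0.120 to 0.189 with vesicles. It was thus low in control and lower in every vesicle-treated library. Its mean over all 9 libraries, 0.566 RPKM, was under 1, so Cdh1 was not tested and is not among the 2 that fell. Of 12 markers of fibroblasts, smooth muscle and pericytes, 10 had a mean under 1 RPKM, among them Tcf21 at 0 throughout, Col3a1 at no more than 0.00623 RPKM and Acta2 at no more than 0.157. The other 2 were high. Dcn was at 195 RPKM in control and 787 after either preparation, and Col1a1 at 79.3 in control and 46.5 and 45.7 with vesicles (means).

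In control cells the family was carried by Pdgfa and Pdgfb, with Pdgfc and Pdgfra far lower, Pdgfrb lower still and Pdgfd at the edge of detection. Vesicles of either donor type went with a fall of Pdgfb and a rise of Pdgfc and Pdgfra. Pdgfra, the PDGFR-alpha gene, was 4.53-fold higher in mean RPKM after wild-type vesicles and 4.86-fold higher after deficient vesicles. Pdgfc was 3.29-fold and 4.22-fold higher, and Pdgfb 1.61-fold and 1.71-fold lower. Pdgfa was the 1 member called between the 2 preparations.

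In control the means fell in the order Pdgfa, Pdgfb, Pdgfc, Pdgfra, Pdgfrb and Pdgfd, and the values of the 3 libraries overlapped for none of the 15 pairs of members. With wild-type vesicles Pdgfra and Pdgfc overlapped, and the other 14 pairs did not. With deficient vesicles Pdgfb overlapped with Pdgfc, and Pdgfc with Pdgfra, while Pdgfb stayed above Pdgfra in every library, and the other 13 pairs did not overlap. This order depends on the gene lengths behind the RPKM. For Pdgfb that length was 2918 bases, against 4161 annotated exonic bases, and for Pdgfra 9627 against 10024. With a longer length for Pdgfb its level would be lower, and its place above Pdgfra and Pdgfc in the vesicle groups might not hold. The order was not recomputed. Among all 21950 genes Pdgfra moved from rank 10698 in control to 8330 with wild-type and 8259 after deficient vesicles, and Pdgfb from 4980 to 7137 and 7509.

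**Figure D1:**
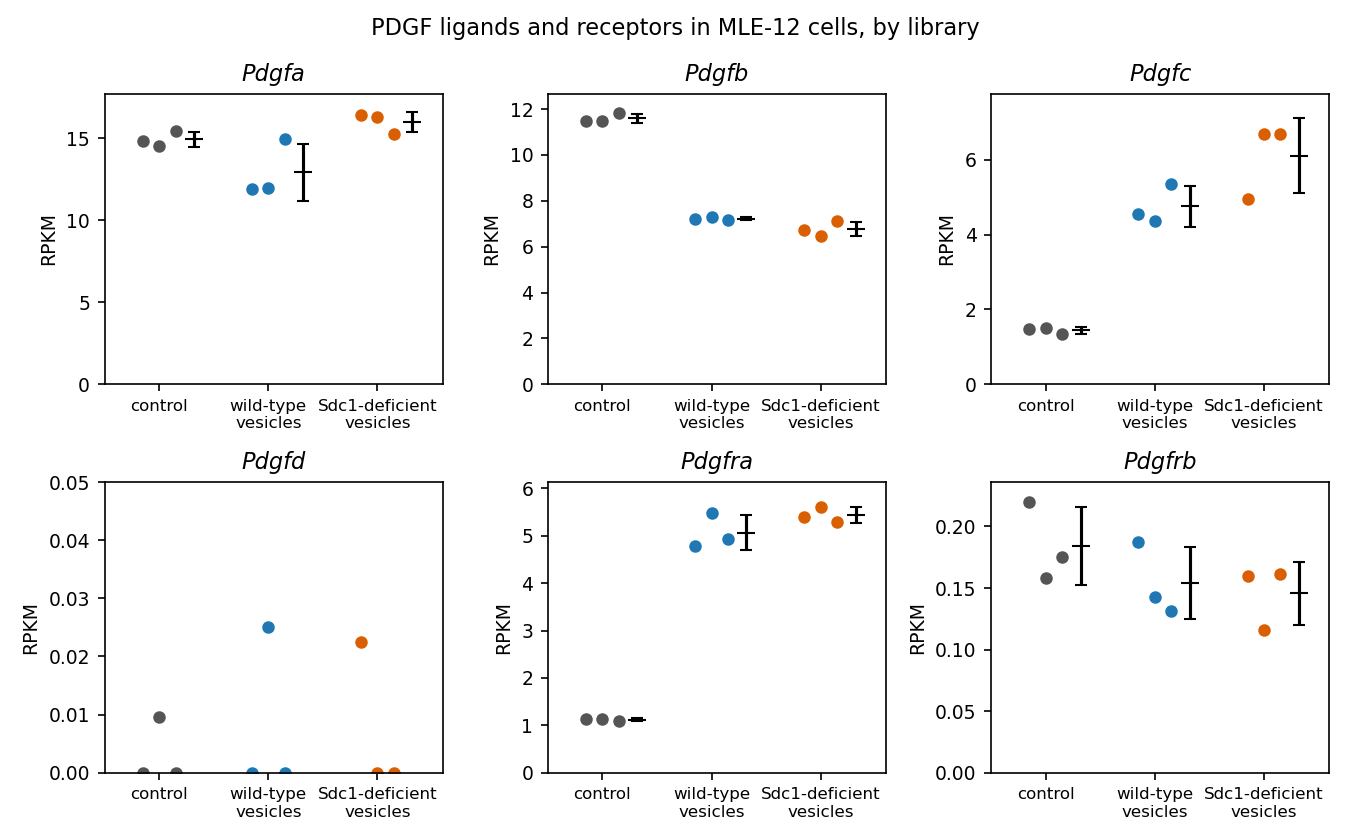
RPKM of the 6 PDGF genes (vertical axes, each from 0) in the 3 libraries of each group (dots), with the mean and SD over 3 libraries beside them, except for Pdgfd, whose values rest on 5 reads in all. The vesicle-treated libraries lie above all controls for Pdgfc and Pdgfra and below all controls for Pdgfb, while wild-type vesicle replicate 3 of Pdgfa, at 14.9, lies among the controls.

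Of the 6 members, 4 passed the filter of a mean of at least 1 RPKM, and each of them was above 1 RPKM in every control library as well. With wild-type vesicles all 4 tested members were called, beside 75.1% of all tested genes, with 2 higher (45.0% of tested genes) and 2 lower (30.0%). With deficient vesicles 3 of 4 were called, beside 75.2% of tested genes, with 2 higher (48.8%) and 1 lower (26.5%). Between the preparations 1 of 4 was called, beside 18.4% of tested genes, and it was higher after deficient vesicles (12.9% of tested genes, against 5.43% called lower). The moderated F test over the 3 groups called all 4, beside 83.9% of tested genes. With backgrounds this high, these counts do not set the family apart, and the sizes of the changes are given below for each member.

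Pdgfa encodes the PDGF-A chain and lies on chromosome 5 at 138976014 to 138997370, minus strand (ENSMUSG00000025856; coordinates here and below are of GRCm38). The control libraries held 14.9, 14.5 and 15.4 RPKM, against 11.9, 11.9 and 14.9 after wild-type vesicles, and 16.4, 16.3 and 15.3 after deficient vesicles. Wild-type replicates 1 and 2 were below every other library, while replicate 3 lay within the control range. The gap within the wild-type group was wider than counting error, since the exact 95% Poisson interval was 11.1 to 12.7 RPKM in replicates 1 and 2 (904 and 952 reads) and 14.1 to 15.8 in replicate 3 (1228 reads).

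The log2 fold change of Pdgfa after wild-type vesicles was -0.20 ± 0.076 (standard error; on RPKM + 1, as are all log2 fold changes here) at a limma adjusted p of 0.034. With deficient vesicles it was 0.092 ± 0.076 at an adjusted p of 0.293 (95% interval -0.078 to 0.26), and -0.096 after the division by median-of-ratios factors. Deficient against wild-type vesicles gave a difference of 0.29 ± 0.076 at an adjusted p of 0.0337, and all 3 deficient libraries were above all 3 wild-type libraries, as was true in either direction of 32.3% of tested genes. Without wild-type replicates 1 and 2 together, a choice made after the data were seen, the log2 fold change after wild-type vesicles was 0.0017 and the difference between the preparations 0.090. That leaves 1 wild-type library, which is assumed to vary like the other groups, and the limma adjusted p were then 0.981 and 0.632. The call against control was lost without wild-type replicate 1 or 2 alone, at log2 fold changes of -0.15 and -0.15 (limma adjusted p = 0.128 and 0.119). It was also lost without control replicate 1, 2 or 3 (adjusted p = 0.0694, 0.0521 and 0.0999), where the log2 fold change was close to that of all libraries, at -0.20, -0.22 and -0.18. The call between the preparations was lost on leaving out any single library except wild-type replicate 3, without which the difference was 0.39 at an adjusted p of 0.000173. The exons of Pdgfa share 813 bases with the antisense gene 6330403L08Rik, which was not analysed here. Of the 50-base sequences of Pdgfa, 21.3% occur in another annotated gene. Both strands were searched, so this share can include the antisense overlap and is not a separate limit. The library kit marks strand, but whether counting used it is not given in the sources used here, so reads of the 2 strands may have been counted together.

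Pdgfb, the PDGF-B chain gene, lies on chromosome 15 at 79995874 to 80014977, minus strand (ENSMUSG00000000489). Its levels were 11.5, 11.5 and 11.8 RPKM in control, 7.19, 7.28 and 7.18 after wild-type vesicles, and 6.73, 6.47 and 7.10 after deficient vesicles. All 6 vesicle-treated libraries were below all 3 controls. Such a separation from control, in either direction, was seen in 78.2% of tested genes for wild-type vesicles and 81.0% for deficient vesicles. Values of wild-type and deficient libraries did not overlap either, as was true of 32.3% of tested genes. Pdgfb fell by 0.62 ± 0.042 on the log2 scale after wild-type vesicles (limma adjusted p = 3.71e-07) and by 0.70 ± 0.042 after deficient vesicles (adjusted p = 1.52e-07). The difference between the preparations, -0.082 ± 0.042, was not called at an adjusted p of 0.175 (95% interval -0.17 to 0.011). The falls stood below those of most genes, since 8.40% and 5.38% of tested genes had a lower log2 fold change. After the division by median-of-ratios factors the falls were -0.74 and -0.88.

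Pdgfc, which encodes the latent ligand PDGF-C, lies on chromosome 3 at 81036416 to 81214040, plus strand (ENSMUSG00000028019). The control libraries held 1.48, 1.52 and 1.34 RPKM, against 4.54, 4.35 and 5.36 after wild-type vesicles, and 4.95, 6.70 and 6.68 after deficient vesicles. These values rested on 655, 1848 and 2852 reads in the 3 groups, and 147 exonic bases are shared with the antisense gene Gm16000. Every vesicle-treated library was above every control, whereas deficient replicate 1 lay within the range of the wild-type group. Pdgfc rose by a log2 fold change of 1.23 ± 0.10 after wild-type vesicles (limma adjusted p = 1.62e-06) and of 1.53 ± 0.10 after deficient vesicles (adjusted p = 3.21e-07). Of all tested genes, 97.4% and 98.7% had a lower log2 fold change. The difference between the preparations was 0.30 ± 0.10 at an adjusted p of 0.0635 (95% interval 0.072 to 0.53). It was called without wild-type replicate 3 (0.37, adjusted p = 0.0148) or without deficient replicate 1 (0.42, adjusted p = 0.0253). The fit that left out wild-type replicates 1 and 2 gave 0.15 (adjusted p = 0.728), from 1 wild-type library whose spread was taken from the other groups.

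Pdgfd, the gene of the other latent ligand, PDGF-D, lies on chromosome 9 at 6168584 to 6378850, plus strand (ENSMUSG00000032006). It was listed at 0 in 6 libraries and at 0.00955, 0.0251 and 0.0224 RPKM in control replicate 2, wild-type replicate 2 and deficient replicate 1. These levels correspond to 1, 2 and 2 reads, and 3 reads in 1 library would give 0.0287 to 0.0395 RPKM. No difference between groups was detectable at this depth.

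Pdgfra lies on chromosome 5 at 75152292 to 75198215, plus strand (ENSMUSG00000029231), and is a widely used marker of lung fibroblasts. The control libraries held 1.14, 1.13 and 1.08 RPKM, against 4.79, 5.48 and 4.92 after wild-type vesicles, and 5.40, 5.62 and 5.29 after deficient vesicles. The 954 reads of the control group compare with 3720 and 4770 in the vesicle groups. All vesicle-treated libraries were above all controls, and the wild-type and deficient libraries overlapped. Pdgfra rose by a log2 fold change of 1.52 ± 0.053 after wild-type vesicles (limma adjusted p = 6.77e-09) and of 1.60 ± 0.053 after deficient vesicles (adjusted p = 4.63e-09), above 98.7% and 98.9% of tested genes. Between the preparations the difference was 0.087 ± 0.053 at an adjusted p of 0.252 (95% interval -0.031 to 0.20). The opposite-strand genes Gm42802 and Gm42803 and the microRNA gene Mir7025 overlap its exons by 456, 166 and 30 bases. Of the 50-base sequences of Pdgfra, 4.93% occur in another annotated gene on either strand, which can include these overlaps.

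Among the markers of mesenchymal cells, the summed level was 272 to 281 RPKM in control, 747 to 889 after wild-type vesicles and 787 to 912 after deficient vesicles. That sum was nearly all Dcn, which encodes the matrix proteoglycan decorin, and the collagen gene Col1a1. Dcn rose from 195 ± 4.4 RPKM (SD, n = 3) to 787 ± 78 and 787 ± 67, and Col1a1 fell from 79.3 ± 0.44 to 46.5 ± 1.5 and 45.7 ± 2.4. With vesicles, Tcf21 stayed listed at 0, Col3a1 was at no more than 0.00623 RPKM, Acta2 at no more than 0.0922, Cspg4, a pericyte marker, at no more than 0.0458 and Thy1 at no more than 0.101. Lum, which encodes the matrix proteoglycan lumican, was listed at 0 in all 3 controls and at 0.191 to 0.472 RPKM in all 6 vesicle-treated libraries. The pericyte marker Rgs5 was at 0.0393 to 0.0441 RPKM in control and at 0.0542 to 0.177 after vesicles, and Tagln, a smooth muscle gene, at 0.760 to 0.977 over all libraries. The part of these markers' changes in that of Pdgfra was not tested. In bulk RNA, a change in the share of cells that hold a transcript and a change in its amount per cell cannot be told apart, nor can RNA made by the cells and RNA carried in with vesicles.

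Pdgfrb, the PDGFR-beta gene, lies on chromosome 18 at 61045150 to 61085061, plus strand (ENSMUSG00000024620). Its levels were 0.220, 0.158 and 0.175 RPKM in control, 0.187, 0.143 and 0.132 after wild-type vesicles, and 0.160, 0.116 and 0.161 after deficient vesicles, on 19 to 36 reads a library. In the RPKM as given, the 3 groups overlapped. Mean differences from control were -0.0302 RPKM with wild-type and -0.0384 after deficient vesicles (two-sided exact permutation p = 0.3 for each, adjusted over 6 tests 0.9). In this test 3 against 3 samples cannot give a p under 0.1. After the division by median-of-ratios factors the differences were -0.0481 and -0.0618 RPKM (exact permutation p = 0.2 and 0.1, adjusted over 6 tests 0.6 for each). A limma fit without the filter gave log2 fold changes of -0.037 and -0.048 at adjusted p of 0.302 and 0.179, with 95% intervals of -0.099 to 0.025 and -0.11 to 0.015. The PDGFR-beta gene was thus far below Pdgfra, and its share of summed receptor RPKM was 14.1 ± 1.9% in control (SD, n = 3), 2.97 ± 0.69% after wild-type vesicles and 2.62 ± 0.52% after deficient vesicles.

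The make-up of the ligand RNA differed between control and vesicle-treated cells. Pdgfc made up 5.17 ± 0.42% of the summed RPKM of the 4 ligand genes in control (SD, n = 3), 19.1 ± 0.55% after wild-type vesicles and 21.1 ± 3.0% after deficient vesicles. The share of Pdgfb was 41.4 ± 0.22% in control, 29.1 ± 2.6% after wild-type vesicles and 23.5 ± 1.3% after deficient vesicles. Pdgfa held 53.4 ± 0.60%, 51.8 ± 2.2% and 55.4 ± 2.9%, and these 3 ranges overlapped. The summed ligand level was 27.97 ± 0.53 RPKM in control, 24.9 ± 2.2 after wild-type vesicles and 28.9 ± 0.70 after deficient vesicles. Summed receptor RPKM went from 1.30 ± 0.054 in control to 5.22 ± 0.35 and 5.58 ± 0.14, so that the ratio of summed ligand to summed receptor RPKM was 21.5 ± 1.1 in control against 4.79 ± 0.62 and 5.17 ± 0.14 with vesicles. The 3 controls and the 6 vesicle-treated libraries did not overlap in the shares of Pdgfc and Pdgfb or in this ratio. These shares depend on the gene lengths used, are descriptions and were not tested.

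**Figure D2:**
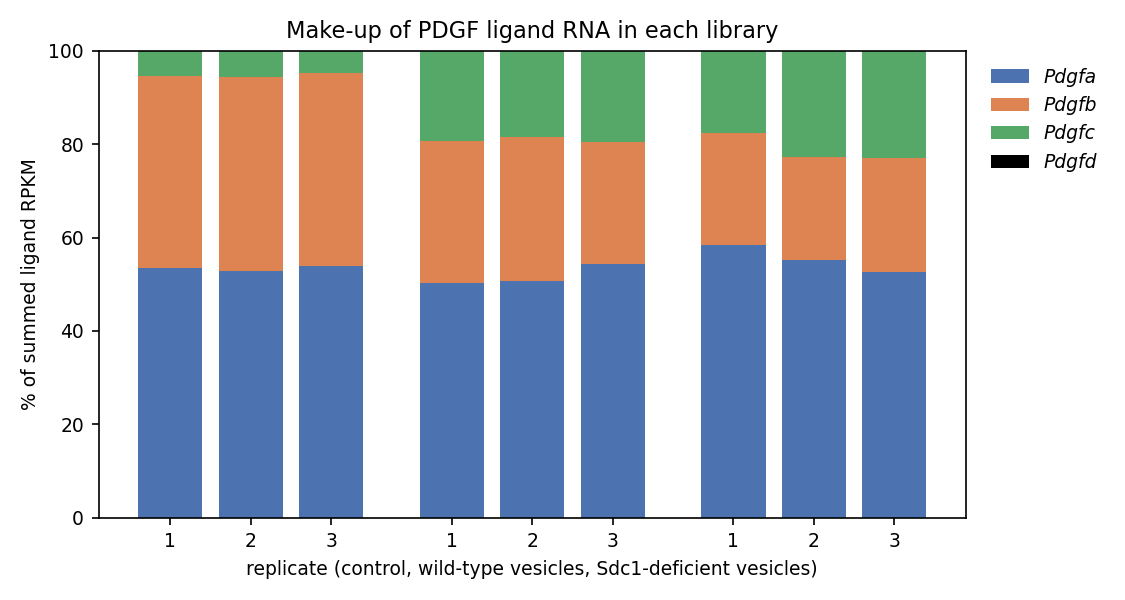
Share of each ligand gene (vertical axis, % of the summed RPKM of Pdgfa, Pdgfb, Pdgfc and Pdgfd) in each of the 9 libraries (horizontal axis, replicates 1 to 3 of the control, wild-type vesicle and deficient vesicle groups). Pdgfc takes 4.70 to 5.51% in control and 17.6 to 23.0% with vesicles, the share of Pdgfb is lower in every vesicle-treated library than in any control, and Pdgfd is too low to be seen.

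**Figure D3:**
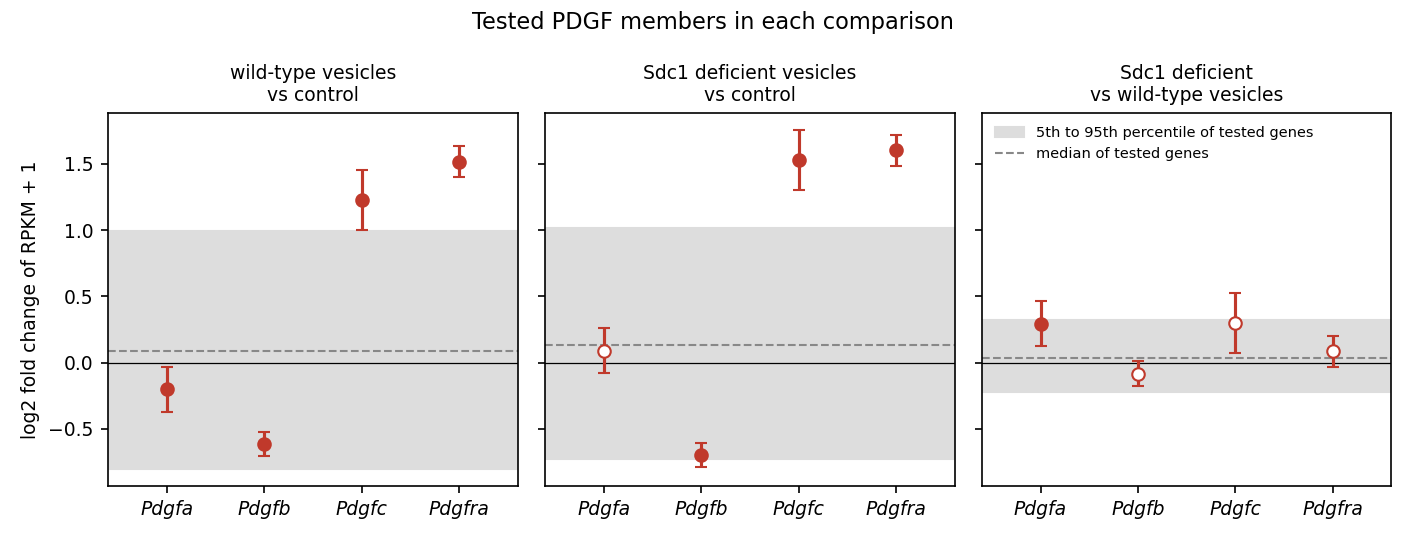
Log2 fold change of RPKM + 1 (vertical axis) of the 4 tested members in each of the 3 comparisons, with 95% intervals of the limma fit; filled dots were called at an adjusted p under 0.05. The grey band spans the 5th to 95th percentile of all 11125 tested genes and the dashed line is their median; Pdgfc and Pdgfra lie above the band in both comparisons with control.

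The upstream sequences of the 2 members that rose are shown to let their base composition be compared. Beside them stands that of 1 start of Pdgfa, the member with the highest level. Each is the 250 bases before a RefSeq transcription start (GRCm38.p6), written 5′ to 3′ on the strand of the gene, at chr5:75152001-75152250 (plus) for Pdgfra, chr3:81036166-81036415 (plus) for Pdgfc and chr5:138994945-138995194 (minus) for Pdgfa. Capitals mark matches to GGGCGG, the box bound by SP1 and KLF factors, on either strand.
Pdgfra: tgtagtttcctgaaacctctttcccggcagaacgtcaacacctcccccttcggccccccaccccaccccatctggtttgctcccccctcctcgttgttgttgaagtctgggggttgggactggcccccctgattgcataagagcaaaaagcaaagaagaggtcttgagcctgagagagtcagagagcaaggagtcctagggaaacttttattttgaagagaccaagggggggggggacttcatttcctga
Pdgfc: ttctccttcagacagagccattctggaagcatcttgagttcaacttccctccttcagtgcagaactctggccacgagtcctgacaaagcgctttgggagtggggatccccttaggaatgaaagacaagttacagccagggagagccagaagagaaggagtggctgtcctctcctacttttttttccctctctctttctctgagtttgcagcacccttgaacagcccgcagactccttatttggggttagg
Pdgfa: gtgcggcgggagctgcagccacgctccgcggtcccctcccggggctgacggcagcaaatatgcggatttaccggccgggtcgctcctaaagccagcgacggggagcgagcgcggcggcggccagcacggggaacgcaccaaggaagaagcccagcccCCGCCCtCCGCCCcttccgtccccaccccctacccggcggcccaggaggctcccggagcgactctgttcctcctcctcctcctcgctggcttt
The share of G and C was 54.4% for Pdgfra, 50.8% for Pdgfc and 72.4% for Pdgfa. Pdgfa held 2 matches to GGGCGG, and Pdgfra and Pdgfc held 0, where 33.0% of 32536 upstream sequences of the same length held at least 1. TATAAA (12.3% of upstream sequences), CCAAT (33.8%), the AP-1 sequence TGANTCA (6.73%) and the EGR1 sequence GCGTGGGCG (0.541%), searched on both strands, had no match in any of the 3 windows. GGGCGG and GCGTGGGCG can overlap. An absent match says only that these letters are not in the window. Pdgfa has another RefSeq start, at base 138994281 of chromosome 5 (minus), whose upstream sequence is not printed here. The share of G and C in its 250 bases was 66.4%, with 1 match to the box of SP1 and KLF factors. Both values lay closer to those of Pdgfra and Pdgfc than the values of the printed Pdgfa window did.

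For each tested member the 3 genes with the most similar profile were taken by Pearson's r of log2(RPKM + 1) over the 9 samples, as a description. For Pdgfra these were Cabp1, Osbpl1a and Tpp1, the last encoding a lysosomal protease, each at r = 0.999, and 2349 genes had an r of at least 0.95. For Pdgfc they were Arhgef12, Rabgap1l and Nfia (r = 0.999, 0.997 and 0.997), and for Pdgfb Samd5, Pfn1 and Cct3 (0.999, 0.998 and 0.998), with 1678 and 969 genes at 0.95 or above. Since vesicles separated the samples in most genes, such profiles were common. The profile of Pdgfa was rarer, with 14 genes at 0.95 or above, led by Ndufb2, Fbxo45 and Thumpd1 (0.978, 0.977 and 0.976). Like Pdgfa, Ndufb2, a respiratory chain subunit gene, was lowest in wild-type replicates 1 and 2, at 5.45 and 5.02 RPKM, against 7.85 in replicate 3, 8.03 to 8.31 in control and 8.54 to 9.29 after deficient vesicles.

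Genes that process or bind the ligands moved in both directions. After either preparation, 4 of 8 tested genes of this list of 11 rose and 3 fell. The shares of all tested genes called higher and lower were 45.0% and 30.0% after wild-type vesicles, and 48.8% and 26.5% after deficient vesicles. Once divided by median-of-ratios factors, the list's counts were 4 and 3, and 3 and 3, beside 3948 and 4492 of 11117 genes, and 3812 and 4578. The median log2 fold change of the list was 0.17 with wild-type and 0.13 after deficient vesicles, beside 0.090 and 0.13 over all tested genes. Furin, a convertase that cuts PDGF-A and PDGF-B, rose from 8.51 ± 0.30 RPKM (SD, n = 3) to 12.3 ± 0.42 with wild-type and 12.3 ± 0.35 after deficient vesicles. Plat, which encodes tissue plasminogen activator, an activator of latent PDGF-C, fell from 53.3 ± 0.98 to 46.9 ± 0.30 and 44.5 ± 3.2 and thus went the other way from Pdgfc. Plau, which encodes urokinase, an activator of PDGF-D, fell from 7.47 ± 0.75 to 4.63 ± 0.46 and 4.86 ± 0.11. Sparc, which encodes a matrix protein that binds PDGF-B, fell from 369 ± 3.1 to 192 ± 1.2 and 193 ± 6.9. The co-receptor gene Nrp1 rose from 107 ± 1.6 to 131 ± 4.2 and 140.4 ± 8.2. Pdgfrl, a receptor-like gene without a kinase domain, rose from 1.31 ± 0.17 to 2.54 ± 0.35 and 2.33 ± 0.24. The matriptase gene St14, whose product also activates PDGF-D, was at no more than 0.0130 RPKM.

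Genes for proteins that dock on or act just below the activated receptors rose in 16 of 24 tested cases and fell in 6 after wild-type vesicles, and rose in 17 and fell in 2 after deficient vesicles. Over all tested genes 45.0% were called higher and 30.0% lower after wild-type vesicles, and 48.8% and 26.5% after deficient vesicles. The median log2 fold change of the list was 0.34 and 0.32, beside 0.090 and 0.13 over all tested genes. After the division by median-of-ratios factors 13 rose and 7 fell after wild-type vesicles, and 12 and 7 after deficient vesicles. Of 11117 genes, 3948 were then called higher and 4492 lower after wild-type vesicles, and 3812 and 4578 after deficient vesicles. Plcg1, which encodes phospholipase C-gamma, rose from 13.7 ± 0.49 RPKM (SD, n = 3) to 27.4 ± 0.71 and 25.8 ± 0.42. The adaptor gene Nck1 rose from 6.99 ± 0.21 to 13.0 ± 0.38 and 11.96 ± 0.11, and Stat5b from 16.5 ± 0.49 to 32.03 ± 1.7 and 29.0 ± 0.55. Pik3ca, the catalytic subunit gene of PI3-kinase alpha, rose from 14.95 ± 0.13 to 22.5 ± 0.48 and 21.9 ± 0.49. Between the preparations 3 of the 24 were higher after deficient vesicles and 1 lower, beside 12.9% and 5.43% of all tested genes. After the division the counts were 3 and 3, beside 777 higher and 1084 lower of 11117 genes.

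Of 7 genes for ubiquitin ligases and phosphatases that restrain the receptors, 3 rose and 2 fell after wild-type vesicles, and 1 rose and 1 fell after deficient vesicles. The shares of all tested genes called higher and lower were 45.0% and 30.0%, and 48.8% and 26.5%. After the division the list's counts were 1 and 4, and 1 and 6, beside 3948 and 4492 of 11117 genes, and 3812 and 4578. Cblb, a ubiquitin ligase gene, rose from 5.75 ± 0.28 RPKM (SD, n = 3) to 10.4 ± 0.52 and 11.4 ± 0.91, and the phosphatase gene Acp1 fell from 25.3 ± 0.21 to 17.0 ± 0.47 and 16.6 ± 0.50. 

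Among related growth factors and receptors, 9 of 13 were tested, and 5 rose and 3 fell after wild-type vesicles, against 5 and 2 after deficient vesicles. The shares of all tested genes called higher and lower were 45.0% and 30.0%, and 48.8% and 26.5%. The division gave 5 and 4, and 4 and 2, beside 3948 and 4492 of 11117 genes, and 3812 and 4578. Vegfb, a PDGF/VEGF family ligand gene, rose from 13.5 ± 0.56 RPKM (SD, n = 3) to 39.9 ± 2.9 and 41.1 ± 1.2. Its log2 fold changes were 1.49 and 1.53. The 1 added to RPKM before the log shrinks changes of low genes such as Pdgfra more than those of Vegfb. Vegfd, listed in the table under its older name Figf, fell from 3.44 ± 0.13 to 1.96 ± 0.12 and 1.96 ± 0.056. The VEGF receptor genes Flt1 and Flt4 rose from 1.97 ± 0.065 and 0.804 ± 0.0074 RPKM to 3.47 ± 0.074 and 2.06 ± 0.094 after wild-type vesicles. Of the receptor genes most related to the PDGF receptors, Kit lay between 0.0303 and 0.0544 RPKM in control and between 0.186 and 0.251 in the vesicle-treated libraries, and Flt3 at no more than 0.0184 in any library. Csf1r, the receptor gene for the macrophage growth factor CSF-1, was higher, at 1.44, 1.48 and 1.49 RPKM in control, 0.874, 0.865 and 1.19 in the wild-type group and 1.39, 1.70 and 1.30 in the deficient group. As with Pdgfa, wild-type replicates 1 and 2 were its lowest libraries. Csf1r fell by 0.32 on the log2 scale after wild-type vesicles (limma adjusted p = 0.00386) and was higher by 0.32 after deficient than after wild-type vesicles (adjusted p = 0.0323).

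Of genes known to be induced by PDGF in fibroblasts, 2 of 8 tested rose and 4 fell after either preparation. The shares of all tested genes called higher and lower were 45.0% and 30.0% after wild-type vesicles, and 48.8% and 26.5% after deficient vesicles. Median log2 fold changes of the list were -0.30 and -0.35, beside 0.090 and 0.13 over all tested genes. After the division 2 rose with 4 and 5 falling, beside 3948 higher and 4492 lower of 11117 genes, and 3812 and 4578. Egr1 rose from 1.89 ± 0.075 RPKM (SD, n = 3) to 6.79 ± 0.39 and 5.91 ± 0.82. Ccl2, one of the first genes found as PDGF-induced in mouse fibroblasts, fell from 6.93 ± 0.61 to 0.962 ± 0.14 and 0.940 ± 0.23. Myc fell from 19.1 ± 0.33 to 12.8 ± 1.5 and 9.68 ± 0.33, and Fosl1 from 2.93 ± 0.41 to 1.31 ± 0.079 and 0.952 ± 0.36.

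**Figure D4:**
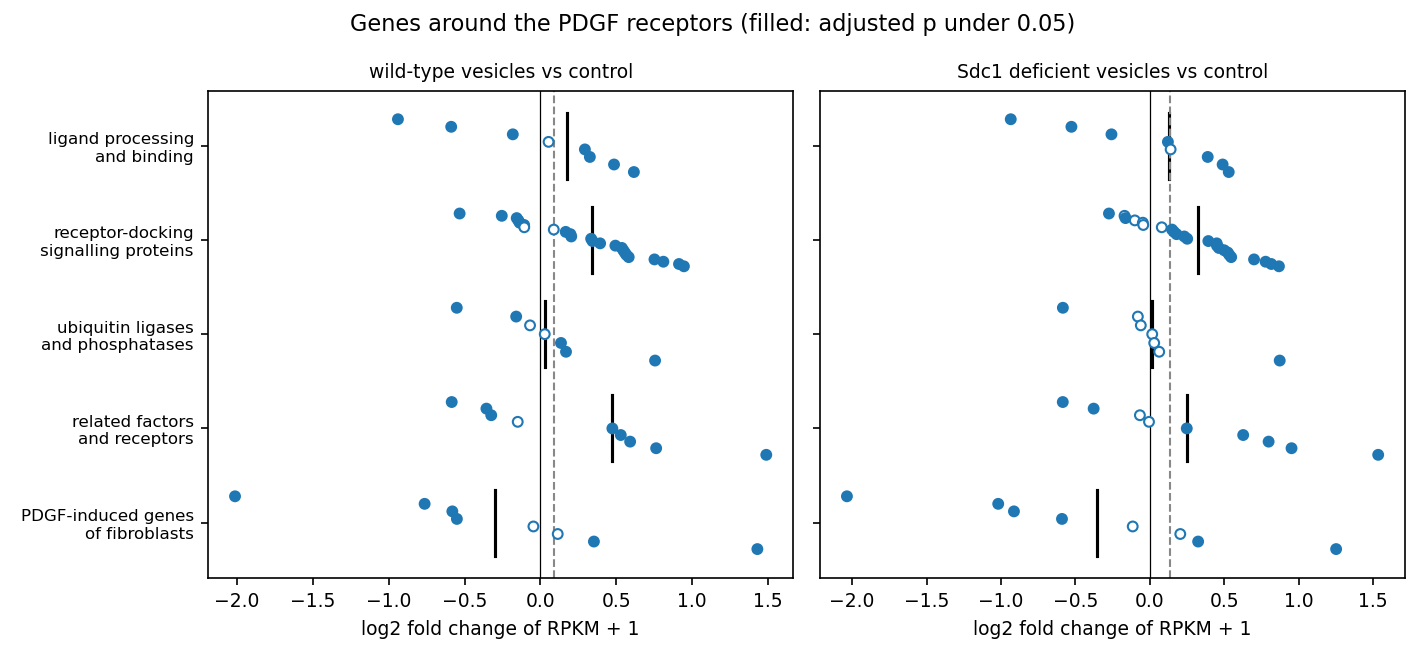
Log2 fold change of RPKM + 1 (horizontal axis) of every tested gene in 5 lists around the PDGF receptors, for wild-type vesicles (left) and syndecan-1 deficient vesicles (right) against control; both panels share the control samples. Dots are genes, filled where called at an adjusted p under 0.05, black bars are list medians and the dashed line is the median of all tested genes; the signalling list has a median of 0.34 and 0.32, and the list of PDGF-induced genes spans Ccl2 at -2.01 and -2.04 to Egr1 at 1.43 and 1.25.

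Markers of other cells that make or answer to PDGF were low. The summed level of 8 macrophage and leukocyte markers was 1.37 to 1.48 RPKM in control, 1.27 to 1.48 after wild-type vesicles and 1.10 to 1.40 after deficient vesicles. Most of that was Cd68, at 0.826 to 1.21 RPKM over all libraries, while Marco was listed at 0. The 6 platelet markers summed to 0.831 to 1.12 RPKM in control, 1.30 to 1.73 with wild-type and 1.91 to 2.16 after deficient vesicles. Most of that was Itga2b and Gp1ba. Itga2b went from 0.617 ± 0.098 RPKM (SD, n = 3) to 1.03 ± 0.12 and 1.32 ± 0.056. Gp1ba went from 0.300 ± 0.047 to 0.495 ± 0.17 and 0.587 ± 0.099. The platelet-defining genes Pf4 and Ppbp were listed at 0 in all libraries. The 6 endothelial markers summed to 1.04 to 1.29 RPKM in control, 2.47 to 2.62 with wild-type and 2.27 to 2.53 after deficient vesicles. Most of the endothelial sum was Tek. Vwf went from 0.205 ± 0.012 RPKM to 0.476 ± 0.013 and 0.509 ± 0.039. Pecam1 was at 0.0975 to 0.236 RPKM over all libraries, and Cdh5, which encodes VE-cadherin, at no more than 0.0103 RPKM. The part of these cells in the changes of the PDGF genes was not tested.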

How the data were processed

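Bulk mRNA sequencing covered 9 samples of MLE-12 cells. The authors deposited RPKM for 21950 genes, per the file headers, with 1 column per sample. Alignment tool and build are known from the submitters' processing notes, which list TopHat2 2.0.7 with GRCm38 (mm10). The read counter is not given in the sources used here. Control columns bear only the cell line's name and a number and were taken as controls because no vesicle tag is on them. Unused value columns numbered 0.

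RPKM steps gave library totals and whole reads for 18196 of 18207 genes above 0, within a share of 1e-07 of the reads; counting intervals and floors of 3 reads cover counting error only. The 11125 genes averaging at least 1 RPKM were tested on log2(RPKM + 1) with limma (version 3.58.1, R 4.3.3) fitted to 3 groups with a variance trend and adjusted by Benjamini-Hochberg over all tested genes. On simulated data with 200 changed genes for wild-type vesicles against control (11125 genes), limma recovered 96% of log2 changes of 0.5 and 99% of those of 1. The simulated noise was the spread of the 3 control libraries. Pairs of vesicle-treated replicates, except wild-type 1 and 2, differed more than control pairs, so recovery in these data may be lower. Members under the filter were tested by exact permutation of mean RPKM (scipy 1.17.1). Alternatives were other pseudocounts, filters, scaling, no variance trend, a replicate block and leaving out libraries. Genes named beside the members are those of each list with the smallest moderated F p, up to 4 a list, and the 3 most similar profiles. Plat, Pdgfrl, St14, Kit, Flt3, Csf1r, Nkx2-1, Krt18, Lum, Rgs5, Tagln, Epcam and Cdh1 were added after values were seen. So were Cd68, Itga2b, Gp1ba, Vwf, Pecam1 and single markers given by their highest value. GENCODE M21 held 21748 of the 21950 gene identifiers, and upstream sequences come from RefSeq, which matched 4 of the 6 members in its table, Pdgfa, Pdgfc, Pdgfd and Pdgfra. The members and lists were chosen with earlier results of these data known.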

Additional observations from a re-analysis of the deposited data

Results flagged for a closer look

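Pdgfa was picked out because it differed between the 2 vesicle preparations, with a log2 difference of 0.29 (deficient minus wild-type vesicles, limma adjusted p = 0.0337), higher in 3 of 3 deficient libraries than in any wild-type library. Since both preparations are compared with the same controls, this difference is also that of their effects against control. It was 0.090 (adjusted p = 0.632) without wild-type replicates 1 and 2, a fit with 1 wild-type library that is assumed to vary like the other groups.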

How the results depend on the processing

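The limma calls of Pdgfb, Pdgfc and Pdgfra against control kept their direction and stayed under 0.05 in every alternative in which they were tested, with log2 fold changes of -0.88 to -0.60 for Pdgfb, 1.14 to 1.99 for Pdgfc and 1.43 to 2.18 for Pdgfra. A mean of at least 5 RPKM left Pdgfc and Pdgfra untested. Pdgfa lost calls and changed sign: its log2 fold change was -0.096 with deficient vesicles after median-of-ratios scaling and 0.0017 with wild-type vesicles without wild-type replicates 1 and 2. Without a filter its calls were lost at adjusted p of 0.0627 against control and 0.0724 between the preparations. Between the preparations, limma then called 1 gene and 0 members (4976 genes and 2 members at an unadjusted p under 0.05), with 18207 genes tested. Without wild-type replicates 1 and 2 together it called 0 genes and 0 members (1073 and 0 unadjusted), with 1 wild-type library left and its spread taken from the other groups. With 1 library left out, calls between the preparations ran from 0 to 4683 genes (2849, 2820 and 3128 unadjusted where 0, without wild-type replicate 1, wild-type replicate 2 or deficient replicate 2) and from 0 to 2 of 4 members (1 or 2 unadjusted where 0); 4683 was without wild-type replicate 3. The cause was not tested. Against control, members called ran from 3 to 4 with wild-type vesicles and stayed at 3 with deficient vesicles.

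The labels state no pairing by replicate number, and the deviations of same-numbered samples correlated between -0.20 and 0.28. Differently numbered samples were not compared, so these correlations cannot show whether the numbers pair the samples. With the replicate number as a block, the calls of all 4 tested members were as without it, and 1681 genes were called between the preparations against 2042. Depth limits Pdgfd and Pdgfrb, with 5 reads in all and 19 to 36 reads a library.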
